A study of Homo sapiens
Mus musculus and Homo sapiens and Mus musculus with 7 samples.

Results

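The RNA on V5-tagged mouse ribosomes was compared with the total mouse RNA of the same kind of mixed culture. The comparison set 2 immunoprecipitates (IPs) made with an antibody against the V5 tag against 1 library of total co-culture RNA, the input, so that 3 of the 7 libraries of the study carry it. Its genes were those that the files place on a mouse chromosome, 54752 of 113473 genes listed, and every level was scaled to the mouse counts of its own library as counts per 1000000 mouse counts (CPM). Of these genes, 8221 had enough counts to be tested, and 37 lay on the mitochondrial chromosome, 12 of them tested.

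NIH3T3 is a mouse fibroblast line and HEK293 is a human embryonic kidney line. In the co-culture the NIH3T3 cells carried the ribosomal protein RPL22 with a V5 tag and the HEK293 cells carried RPL22 with an HA tag. Both V5 IPs, both HA IPs and the input came from co-cultures of these tagged lines, and 1 further library was made from each line grown alone. Per the labels, the first V5 IP was made from the lysate of sample 1 and the second from that of sample 4, and the first and second HA IPs from those of samples 1 and 5. The sources used here do not say how these lysates relate, nor do they give the promoter of the tagged genes, whether a line was 1 clone, or whether the cells grown alone carried a tag. The p-values below therefore measure the spread between IPs, which may be technical.

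RPL22 is a protein of the large subunit of the cytosolic ribosome. An antibody against its tag pulls down assembled ribosomes together with the messenger RNAs that they are translating, so the RNA of one cell type can be read out of a mixture. Mitochondria hold their own ribosomes, built from other proteins and from ribosomal RNAs of the mitochondrial genome, and these translate the mitochondrial messenger RNAs inside the organelle.

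Mouse genes held 93.8% and 95.5% of all counts in the first and second V5 IPs, against 73.1% in the input. The mouse counts were 1934970 and 1744329 in the V5 IPs, 759701 in the input, 158572 and 350176 for the HA IPs, and 1998567 for NIH3T3 cells grown alone. The input was thus the shallower side of the comparison, and 4121 of the 8221 genes tested had fewer than 10 counts in it. The sources used here pair no mouse identifier with a symbol, so the fibroblast label could not be checked against marker genes, and genes are given by chromosome, exonic length and exon number. In bulk RNA, fewer cells and less RNA per cell cannot be told apart.

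The 2 V5 IPs resembled each other more than the first of them resembled the input. The genes compared were 2188 of those tested, mitochondrial ones included, with a mean of at least 50 CPM over the V5 IPs. Of these, 97.1% lay within 2-fold in the V5 pair, and 73.9% did so between the first V5 IP and the input. Between the first V5 IP and the NIH3T3 monoculture the share was 84.0%. Across these genes, which are not independent replicates, Pearson's r of log2 levels was 0.955 within the V5 pair and 0.860 between the first V5 IP and the input. Of the 63 genes beyond 2-fold within the pair, 53 were higher in the first V5 IP and 10 in the second.

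**Figure D1:**
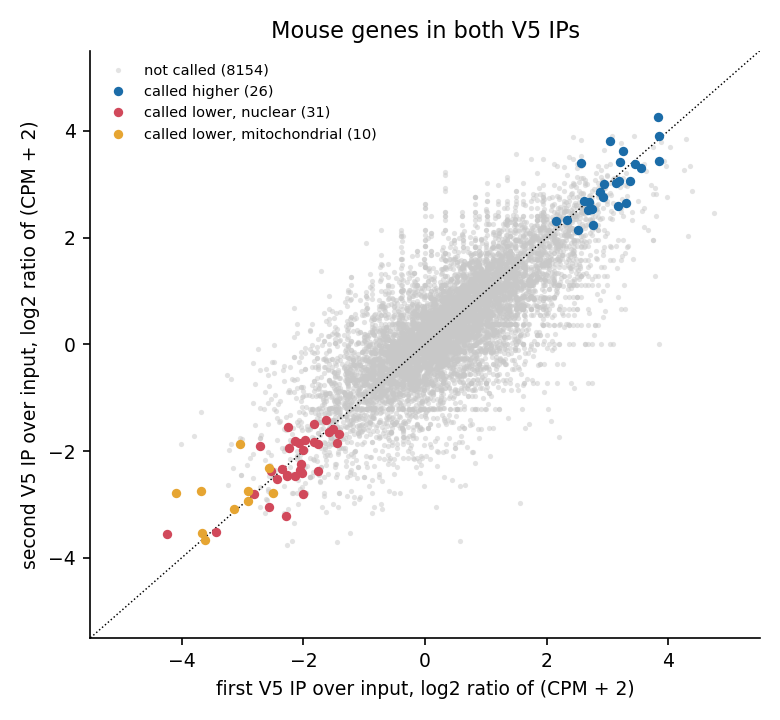
Each point is 1 of the 8221 mouse genes tested, placed by its log2 ratio to the co-culture input in the first V5 IP (x axis) and the second V5 IP (y axis), with 2 CPM added to each level; the dotted line marks equal ratios. Coloured points passed the test: 26 higher, 31 lower nuclear and 10 lower mitochondrial genes, and each group lies on 1 side of the input in both V5 IPs.

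Mitochondrial RNA was several-fold scarcer in the V5 IPs than in the input. Mitochondrial genes took 0.222% of mouse counts in the first V5 IP (exact Clopper-Pearson 95% interval 0.215% to 0.229%) and 0.234% in the second (0.227% to 0.242%), against 1.97% in the input (1.942% to 2.005%). These intervals cover counting error only. The mean of the V5 IPs, 0.228% ± 0.00877 (SD, n = 2), was 8.65-fold below the input, a gap far wider than that between the 2 IPs. The NIH3T3 monoculture held 2.97%, and the mouse RNA found in the HA IPs held 2.22% and 2.02%. All 4 of these other libraries lay above both V5 IPs, the HA IPs included.

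Gene by gene, 10 of the 12 mitochondrial genes tested were called lower in the V5 IPs than in the input (edgeR quasi-likelihood test, two-sided, Benjamini-Hochberg adjusted p below 0.05 over all 8221 genes), where 0.499% of all genes tested were called lower. Their median log2 change was -3.37, about 10.3-fold, against a median of 0.12 over all genes. The same 10 genes were also called lower against the NIH3T3 monoculture, where 0.353% of genes were called lower, and against the HA IPs, where 0.243% were. The median of the 12 was -3.53 against the NIH3T3 monoculture and -3.06 against the HA IPs. These comparisons share the V5 libraries, and those against the NIH3T3 monoculture and the HA IPs were added after the data had been seen.

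The mitochondrial gene with the most counts in the input, ENSMUSG00000064339.1, is a single exon of 1582 bases on the plus strand, at bases 1094 to 2675 of the mitochondrial chromosome as the files number it. It had 715 and 775 CPM in the V5 IPs, against 9056 CPM in the input, 15448 CPM in the NIH3T3 monoculture and 6836 and 5189 CPM in the HA IPs. Both V5 IPs lay far below all 4 other libraries. The fitted log2 change against the input was -3.86 ± 0.43 (SE, adjusted p = 7e-06 by edgeR). A second gene, ENSMUSG00000064345.1, is a single exon of 1038 bases at bases 3914 to 4951. It had 30.5 and 79.1 CPM in the V5 IPs, against 554 CPM in the input, 646 CPM in the NIH3T3 monoculture and 568 and 560 CPM in the HA IPs. The V5 IPs differed from each other by more for this gene than for the first, and neither came near the other libraries. Its log2 change was -3.60 ± 0.49 (SE, adjusted p = 7.3e-05 by edgeR). Without the first V5 IP the adjusted p was 0.121 for both genes. Without the second it was 0.139 for the first gene and 0.00576 for the second.

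By structure, the mitochondrial genes fell into 15 of 204 to 1824 bases and 22 of 59 to 75 bases. The mitochondrial genome encodes ribosomal RNAs and subunits of the respiratory chain in its long genes and transfer RNAs in its short ones. Of the long genes, 9 were tested and 8 were called lower. The fold by which the input exceeded the mean of the V5 IPs ran over these 9 genes between 2.48 and 12.2, with a median of 7.60, and the fold by which the NIH3T3 monoculture exceeded it ran between 3.10 and 20.7. All 9 were thus lower in the V5 IPs than in both of these libraries.

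The gene that moved least is 1545 bases long and lies at bases 5328 to 6872; it is described for that reason, after its values were seen. It had 358 and 300 CPM in the V5 IPs, against 816 CPM in the input, 1022 CPM in the NIH3T3 monoculture and 3525 and 2702 CPM in the HA IPs. Both V5 IPs were below every other library, but the input was closer to them than for the other long genes. The log2 change was -1.57 ± 0.41 (SE, adjusted p = 0.0643 by edgeR) against the input, which misses the threshold, and -3.01 (adjusted p = 1.5e-05) against the HA IPs. With this gene, 11 of the 12 tested were called lower against the HA IPs.

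A gene with nearly the same level in both V5 IPs, 1144 bases long at bases 14145 to 15288, had 278 and 273 CPM in the V5 IPs, against 2090 CPM in the input and 3758 CPM in the NIH3T3 monoculture. Its log2 change was -3.19. The only long gene tested on the minus strand, at bases 13552 to 14070, had 7.75 and 16.6 CPM in the V5 IPs, against 124 CPM in the input and 79.1 CPM in the NIH3T3 monoculture, a log2 change of -3.60. It overlaps by a few bases a plus-strand gene of 1824 bases that had 20.2 and 48.2 CPM in the V5 IPs, against 180 CPM in the input and 159 CPM in the NIH3T3 monoculture. Counting used no strand, so reads in the shared bases cannot be assigned, and both genes stood well below the input in both V5 IPs.

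Within the mitochondrial counts the makeup also differed. The 2 genes with the most counts held 61.2% and 61.3% of the mitochondrial counts in the V5 IPs, against 74.6% in the input and 75.3% in the NIH3T3 monoculture. In the first HA IP the same genes had 1084 and 1037 of 3523 mitochondrial counts. In the second HA IP they had 1817 and 2303 of 7060. By this share the HA IPs were closer to the V5 IPs than to the input, so the makeup was not particular to the V5 IPs. The 22 short genes summed to 19 and 15 counts in the V5 IPs, against 101 in the input and 586 in the NIH3T3 monoculture. Of these, 3 were tested and 2 were called lower, one of 71 bases (9 and 6 counts in the V5 IPs, 27 in the input, log2 change -3.36) and one of 67 bases (7 and 6 counts in the V5 IPs, 51 in the input, log2 change -4.47). A gene of 66 bases had 0 counts in both V5 IPs and 7 in the input. With a limit of 3 counts set for the 0 over both V5 IPs, its input level was 11.3-fold above that limit. This figure leaves out the counting error of the 7 input counts, and the gene did not pass the test. A run of 9 neighbouring genes, 6 of them long, between bases 7013 and 10173 had at most 5 counts in every library, so nothing can be read of it in either group.

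**Figure D2:**
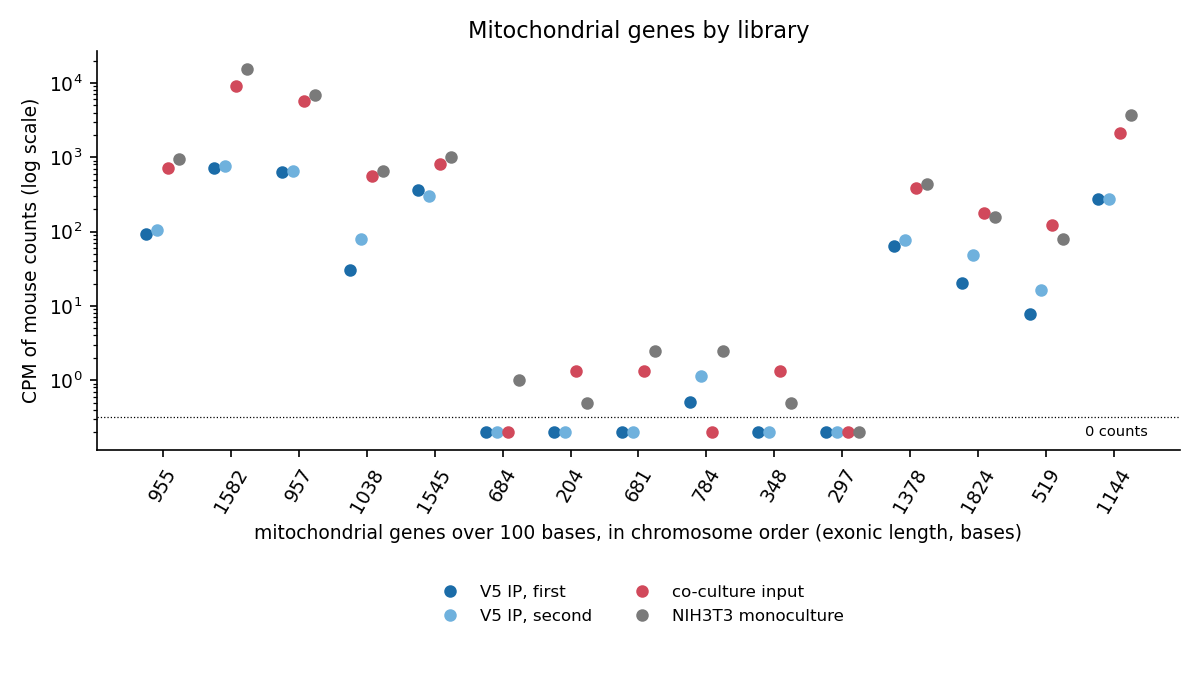
The 15 mitochondrial genes over 100 bases are shown in chromosome order (x axis, exonic length in bases), with the level in each library in CPM of mouse counts on a log scale (y axis); points under the dotted line are at 0 counts. In the genes tested, both V5 IPs sit below the input and the NIH3T3 monoculture, and the 6 genes in the middle had at most 5 counts in every library.

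Across all mouse genes, 67 of 8221 differed between the V5 IPs and the input by the edgeR test (0.815%), of which 26 were higher (0.316%) and 41 lower (0.499%). The 41 comprised the 10 mitochondrial genes above and 31 nuclear genes. This split rests on how the libraries are scaled: by mouse counts with no further factor it was 50 higher and 35 lower, and the median log2 change of all genes moved to 0.38. The single input has no spread of its own and was taken to vary like the IPs. With 1 IP of either tag left out, a single pair of IPs set the spread, and the count of genes called moved widely. The 67 calls did not hold without the first V5 IP, and nearly all of them were lost without the second.

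All 26 higher genes are nuclear and have several exons, and their median length is above that of all nuclear genes tested. They have 6 to 24 exons, with a median of 11.5, and 18 have at least 10, against 45.6% of the 8209 nuclear genes tested. Their exonic lengths run from 2160 to 20117 bases with a median of 6656.5, against 3960 over all nuclear genes tested. They lie on 15 chromosomes, with 6 on chromosome 2. Their median level was 289.6 CPM in the V5 IPs, against 30.3 CPM in the input, 136 CPM in the NIH3T3 monoculture and 269 CPM in the HA IPs. Input counts behind these levels ran from 3 to 423 with a median of 23, so most of these changes rest on few input reads.

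The gene with the largest change, ENSMUSG00000028218.19, lies on the minus strand of chromosome 4 between bases 12153409 and 12172015 and has 11 exons that sum to 4683 bases. It had 82.2 and 112 CPM in the V5 IPs, against 3.95 CPM in the input, 50.04 CPM in the NIH3T3 monoculture and 101 and 91.4 CPM in the HA IPs. The input alone stood apart, and its value rests on 3 counts, which give a V5 to input ratio of 24.4 with an exact counting interval of 8.29 to 119 (adjusted p = 0.0100 by edgeR). ENSMUSG00000027091.14, on the plus strand of chromosome 2 between bases 83644435 and 83664622, has 10 exons that sum to 2789 bases. It had 331 and 344 CPM in the V5 IPs, against 21.1 CPM in the input, 78.6 CPM in the NIH3T3 monoculture and 303 and 314 CPM in the HA IPs. Its log2 change was 3.73 ± 0.61 (SE, adjusted p = 0.00126 by edgeR). Here too the HA IPs sat at the level of the V5 IPs. With the first V5 IP left out the adjusted p was 0.351 for the gene on chromosome 4 and 0.0998 for the one on chromosome 2, and with the second left out 0.855 and 0.146. The sources used here name no mouse build, and coordinates are as the files give them.

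Further genes were picked after their values were seen, to show the range. A 6-exon gene of 2390 bases on chromosome 1 had 500 and 376 CPM in the V5 IPs, against 32.9 CPM in the input, 184 CPM in the NIH3T3 monoculture and 416 and 240 CPM in the HA IPs (log2 change 3.47). A 7-exon gene of 6755 bases on chromosome 2 had 697 and 903 CPM in the V5 IPs, against 71.1 CPM in the input, 353 CPM in the NIH3T3 monoculture and 895 and 671 CPM in the HA IPs (log2 change 3.23). In both, the NIH3T3 monoculture lay between the input and the V5 IPs. The most abundant of the 26, a 13-exon gene of 2665 bases on chromosome 11, had 3778 and 2631 CPM in the V5 IPs, against 557 CPM in the input and 2535 CPM in the NIH3T3 monoculture, so that its second V5 IP barely exceeded the cells grown alone.

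One of the 26 had a pattern of its own, a 22-exon gene of 10150 bases on chromosome 12. It had 56.3 and 103 CPM in the V5 IPs, against 7.90 CPM in the input, 7.51 CPM in the NIH3T3 monoculture and 460 and 608 CPM in the HA IPs. The input and the monoculture were alike, the V5 IPs higher, and the HA IPs higher again. By edgeR the log2 change of the V5 IPs was 3.06 against the input (adjusted p = 0.0310), 3.33 against the NIH3T3 monoculture (adjusted p = 0.00745) and -2.57 against the HA IPs (adjusted p = 0.00157).

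The 31 lower nuclear genes were more mixed in structure. They have 1 to 52 exons, with a median of 10, and 7 consist of a single exon, a kind that made up 7.85% of nuclear genes tested. Their exonic lengths run from 168 to 7963 bases with a median of 3012, and they lie on 16 chromosomes. Their median level was 66.6 CPM in the V5 IPs, against 289.6 CPM in the input, 179 CPM in the NIH3T3 monoculture and 82.0 CPM in the HA IPs. Input counts ran from 36 to 11227 with a median of 220, deeper than for the higher genes. Of the 57 nuclear genes called, 3 higher and 3 lower ones share over 10% of their exonic bases with another gene, where the counts cannot be split.

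Among the single-exon genes, one of 345 bases on chromosome 1 had 1.03 and 2.87 CPM in the V5 IPs, against 55.3 CPM in the input and 62.0 CPM in the NIH3T3 monoculture. These were 2 and 5 counts in the V5 IPs, against 42 counts in the input, and the log2 change was -5.03 ± 0.93 (SE, adjusted p = 0.0033 by edgeR). One of 168 bases on chromosome 7 had 2.58 and 2.29 CPM in the V5 IPs, against 47.4 CPM in the input and 77.1 CPM in the NIH3T3 monoculture. For both genes the monoculture lay above the input and both V5 IPs far below it. A single exon of 3329 bases on chromosome 17 had 12.4 and 9.75 CPM in the V5 IPs, against 57.9 CPM in the input, 2658 CPM in the NIH3T3 monoculture, and 75.7 and 77.1 CPM in the HA IPs. Its log2 change was -2.63 against the input and -7.95 against the NIH3T3 monoculture (adjusted p = 1.2e-11 by edgeR), so that the input itself lay far below the monoculture.

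Among those with several exons, the most abundant was a 4-exon gene of 1340 bases on chromosome 7, which shares 34.6% of its exonic bases with another gene. It had 3683 and 3719 CPM in the V5 IPs, against 14778 CPM in the input, 9516 CPM in the NIH3T3 monoculture and 7631 and 8202 CPM in the HA IPs (log2 change -2.26). A 4-exon gene of 866 bases on chromosome 19 had 1733 and 2016 CPM in the V5 IPs, against 5371 CPM in the input, 3937 CPM in the NIH3T3 monoculture and 3538 and 4324 CPM in the HA IPs (log2 change -1.78). In both, the V5 IPs were lowest and the input highest. A 52-exon gene of 6563 bases on chromosome 11 had 213 and 250 CPM in the V5 IPs, against 904 CPM in the input, 749 CPM in the NIH3T3 monoculture and 303 and 248 CPM in the HA IPs (log2 change -2.23). A 14-exon gene of 7355 bases on chromosome 14 had 33.6 and 33.8 CPM in the V5 IPs, against 247 CPM in the input, 261 CPM in the NIH3T3 monoculture and 18.9 and 17.1 CPM in the HA IPs. Its log2 change was -3.13 against the input and 1.10 against the HA IPs, the last with adjusted p = 0.609 by edgeR. In the 52-exon and 14-exon genes the HA IPs were nearer to the V5 IPs and the monoculture nearer to the input. The HA levels of the 14-exon gene rest on 3 and 6 counts. The monoculture was not nearer to the input in all long genes. A lower gene of 7963 bases on chromosome 8 had 115 CPM in the monoculture, against 295 CPM in the input and 56.3 and 56.8 CPM in the V5 IPs. Its HA IPs had 44.1 and 45.7 CPM, again near the V5 IPs.

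**Figure D3:**
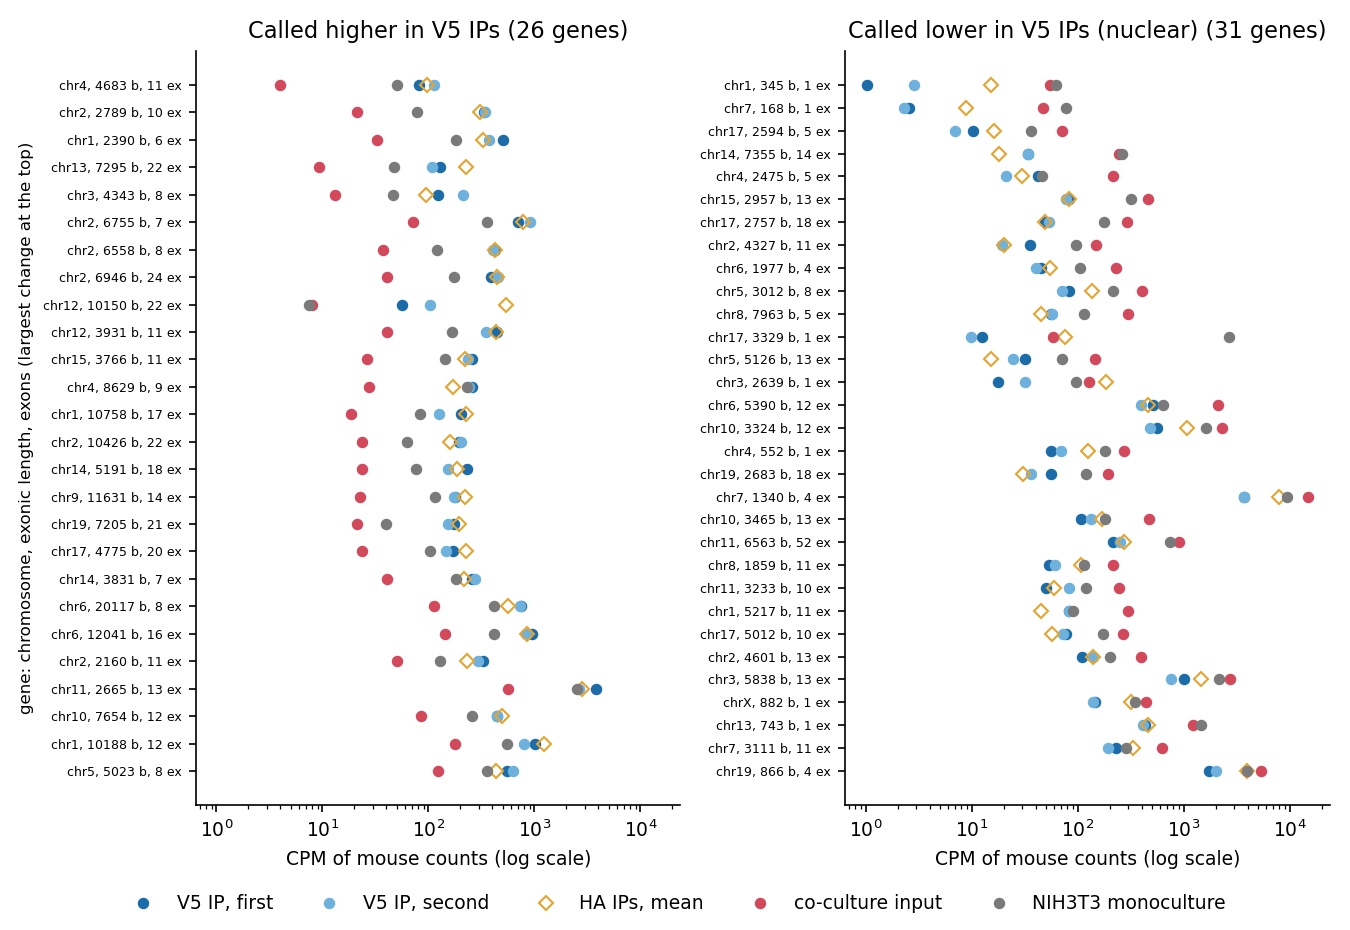
The 26 higher (left) and 31 lower (right) nuclear genes are listed by chromosome, exonic length and exon number, largest fitted change at the top, with the level in CPM of mouse counts on a log scale (x axis) in each V5 IP, the mean of the HA IPs, the input and the NIH3T3 monoculture. On the left the input lies below both V5 IPs and both HA IPs in all 26; on the right the NIH3T3 monoculture lies above both V5 IPs in all 31.

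The HA IPs and the NIH3T3 monoculture give the levels of the same genes in libraries outside the comparison. Of the 26 higher genes, both HA IPs exceeded the input in 26, where they did so in 34.4% of all nuclear genes tested. The NIH3T3 monoculture lay above the input in 25 of 26, against 62.6% of nuclear genes, and below both V5 IPs in 26 of 26, against 38.2%. Of the 31 lower nuclear genes, both HA IPs lay below the input in 29 (26.1% of nuclear genes), and the NIH3T3 monoculture lay below the input in 26 (37.3%) and above both V5 IPs in 31 (35.9%). The genes were chosen on the V5 IPs and this input, so these counts share libraries with the choice and are no separate support.

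Put against the other libraries, most nuclear calls were lost. Against the NIH3T3 monoculture, 31 genes were called by edgeR (0.377%), 2 of them higher (0.0243%) and 29 lower, with 1 of the 26 higher, 5 of the 31 lower nuclear and all 10 of the lower mitochondrial genes among them. The median log2 change in the same 3 sets was 1.09, -1.42 and -3.53. Against the HA IPs, 22 genes were called (0.268%), again 2 higher (0.0243%) and 20 lower, with 1 of the 26, the chromosome 12 gene in the opposite direction, 2 of the 31 and all 10 of the 10. The medians were 0.25, -0.04 and -3.13. The fitted change had the opposite sign against the HA IPs in 7 of the 26 and 14 of the 31, and of these the chromosome 12 gene alone passed the test. A call lost does not show that the levels are alike. The mouse RNA of the HA IPs was counted at 158572 and 350176 reads, so low genes there are measured less closely than in the V5 IPs.

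Gene length followed the difference from the input as well. The nuclear genes tested were split into 5 classes of near-equal size by exonic length, from 70 to 1987 bases in the shortest to 7077 to 123179 in the longest. The median fitted log2 change of the V5 IPs against the input was -0.06, -0.12, 0.10, 0.34 and 0.69 from the shortest to the longest class. The calls went the same way, with 0, 4, 5, 6 and 11 higher and 9, 9, 5, 6 and 2 lower genes. The longest class held 4.59% and 4.20% of nuclear mouse counts in the V5 IPs, against 2.83% in the input and 4.57% in the NIH3T3 monoculture. The V5 IPs and the monoculture thus had like shares, and the input a smaller one. The HA IPs held 8.01% and 4.66% in this class, also above the input, so the larger share was not particular to the V5 IPs. The shortest class held 45.8% and 48.2% in the V5 IPs, against 48.9% in the input and 41.8% in the NIH3T3 monoculture.

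The NIH3T3 monoculture differed from the input by length in the same way, with median log2 ratios of 0.04, 0.17, 0.32, 0.45 and 0.71 over the 5 classes. These are ratios of single libraries with no further scaling factor, unlike the fitted changes. On this measure the first V5 IP over the input gave 0.15, 0.14, 0.34, 0.49 and 0.76. The second gave 0.22, 0.08, 0.21, 0.38 and 0.60. Against the monoculture, the fitted changes of the V5 IPs showed no such rise, at 0.12, -0.05, -0.03, 0.00 and 0.05. As a description across 8209 genes that share libraries and depth, Spearman's rho with exonic length was 0.202 for the V5 IPs over the input and -0.022 for the V5 IPs over the monoculture. Among the 2240 genes of at least 50 CPM in the NIH3T3 monoculture, where low counts weigh less, the V5 IPs over the input gave -0.10, -0.20, -0.14, 0.17 and 0.41, and the V5 IPs over the monoculture 0.11, -0.19, -0.34, -0.22 and -0.26. These genes were chosen by their level in the monoculture, which enters the second ratio. The trend of long genes was thus present against the input and was not seen, or ran the other way, against the cells grown alone, and the comparison has 1 library on each of those sides.

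**Figure D4:**
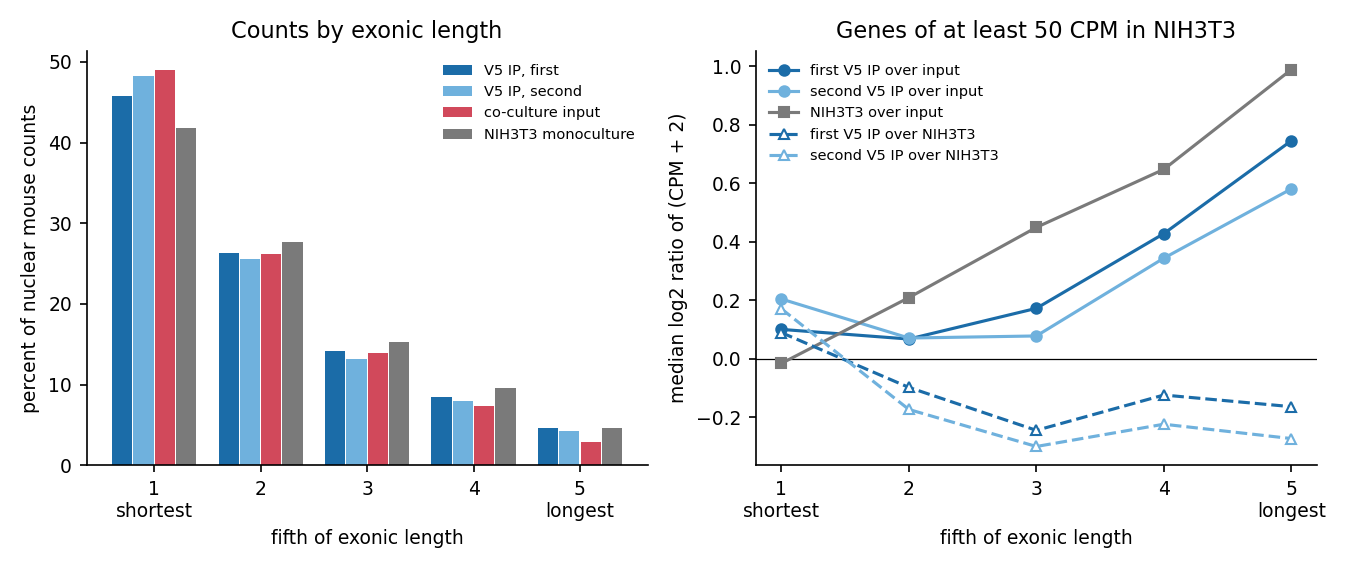
Left, the percent of nuclear mouse counts in each of the 5 length classes (x axis, shortest to longest), as bars for the V5 IPs, the input and the NIH3T3 monoculture; in the longest class the input has the lowest bar. Right, the median log2 ratio of (CPM + 2) per class among genes of at least 50 CPM in the NIH3T3 monoculture, where the V5 IPs over the input and the monoculture over the input are highest in the longest class and the V5 IPs over the monoculture are not.

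Exon number moved with length. The median fitted log2 change against the input was -0.07 for 644 single-exon genes, -0.07 for 1315 genes of 2 to 4 exons, 0.07 for 2503 genes of 5 to 9 exons and 0.38 for 3747 genes of at least 10 exons. Among genes of at least 50 CPM in the NIH3T3 monoculture, these medians were -0.16, -0.11, -0.07 and 0.01. The rise was thus smaller where low counts weigh less. Genes of at least 10 exons held 15.01% and 13.20% of nuclear mouse counts in the V5 IPs, against 12.7% in the input and 17.0% in the NIH3T3 monoculture, so that both V5 IPs lay between the input and the monoculture in this share. By chromosome, the medians against the input lay between -0.23 on chromosome 7 and 0.47, and against the NIH3T3 monoculture between -0.08 and 0.13. The spread between chromosomes was therefore narrower when the input was not part of the comparison.

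Detection differed with depth. At least 10 counts were found for 7168 and 6749 genes in the V5 IPs, against 4100 in the input. Of the genes with at least 10 counts in each V5 IP, 163 had 0 in the input, with a median of 9.32 CPM in the V5 IPs and 6.004 CPM in the NIH3T3 monoculture. The limit that 0 counts in the input allows is 3.95 CPM. In the other direction, 0 genes had at least 10 counts in the input and 0 in both V5 IPs. The V5 IPs held 1934970 and 1744329 mouse counts, against 759701 in the input. At that depth 0 counts in both would need a strong fall, so this says little of what the V5 IPs capture.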

How the data were processed

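RNA was measured in 7 libraries, of which the 2 V5 IPs and the co-culture input make the comparison, with the 2 HA IPs and the NIH3T3 monoculture in the same fit. Per the labels' protocols, SMART-seq gave the cDNA and Nextera DNA Flex the libraries. The deposited values are whole-number counts per gene, from featureCounts 1.5.2 in paired mode, summed over the exons of each gene with strand ignored, on a combined human and mouse annotation, per the file headers. Tools named in the submitters' processing notes are STAR 2.5.2, SAMtools, Trim Galore and bcl2fastq, with the human build hg38. Neither a mouse build nor an annotation release is named in the sources used here. No mouse identifier was paired with a symbol or a sequence, so gene lists and marker genes were not used.

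Mouse genes were taken by chromosome name. Counts were tested with edgeR 4.0.16 (quasi-likelihood fit and test, two-sided) in R 4.3.3, with mouse counts as library sizes, TMM factors, filterByExpr at min.count 10 and min.total.count 15, and Benjamini-Hochberg adjustment at 0.05 over 8221 genes. The spread had 2 residual degrees of freedom, from the 2 pairs of IPs, and the biological coefficient of variation was 44.8%. Mouse counts per library in this fit were 158572 to 1998567. Intervals of shares and ratios are exact and cover counting error only. Ratios of single libraries used 2 CPM added to each level. Simulated counts were also put through the comparison of the V5 IPs with the input. There 50 of 7569 genes fitted were called, and 10% of the calls fell on unchanged genes, against the 0.05 set for the adjustment. Recovery was 0% for 2-fold changes, 10.4% for 4-fold and 57.6% for 16-fold. Most changes of 4-fold or less were thus missed, and a gene not called may still differ.

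Genes were named by the largest fitted change among called genes with a mean of at least 50 CPM over the V5 IPs and the input and both V5 IPs on 1 side of the input, at most 2 identifiers in each direction. Further genes were picked after their values were seen. The members and lists were chosen with earlier results of these data known. Alternatives were DESeq2 1.42.0 size factors and Wald test, no scaling factor, a filter of 50 counts in 2 libraries, no filter on counts, IP order as a block, a fit of the V5 IPs and input only, genes seen in HEK293 left out (over 5% of their NIH3T3 level), mitochondrial genes left out, and each IP left out. Setting the NIH3T3 monoculture or the HA IPs in place of the input, and the limit to genes of at least 50 CPM in NIH3T3, were added after the data had been seen. Summaries and figures were made in Python 3.11.15 with matplotlib 3.10.9, scipy 1.17.1, pandas 2.3.3 and numpy 2.4.6.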

Additional observations from a re-analysis of the deposited data

Results flagged for a closer look

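The HEK293 monoculture, a library of human cells outside the comparison, held 108 counts on mouse genes, spread over 57 genes. The 2 highest of these genes had 12 and 10 counts. None of the 108 lay on the mitochondrial chromosome, and 1 of the 67 genes called between the V5 IPs and the input had a count there. With the genes seen in HEK293 left out, 67 of 8212 genes were called. Where these counts came from was not tested.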

How the results depend on the processing

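The count of 67 mouse genes called between the V5 IPs and the input moved to 103 with DESeq2's Wald test (64 of the 67 shared) and to 896 in a fit of the V5 IPs and the input only, where the biological coefficient of variation was 34.7% against 44.8%. Leaving out 1 IP at a time gave 1 to 867 genes, the low end without either V5 IP and the high end without the first or second HA IP. With the NIH3T3 monoculture in place of the input it was 31, and with the HA IPs 22. The other settings gave 51 to 96.

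The correlation of deviations of same-order IPs from their group means was 0.0967 over 8221 genes, with 2 pairs only, so IP order was not taken as pairing. With IP order as a replicate block, 117 genes were called, 66 of them among the 67.

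The median log2 change of the 12 mitochondrial genes was -3.11 with no scaling factor, -3.53 against the NIH3T3 monoculture and -3.06 against the HA IPs. With a V5 IP left out, the gene of 66 bases was no longer tested. The median of the genes still tested was then -3.41 to -3.16. The mitochondrial share of mouse counts was 0.222% to 0.234% with a V5 IP left out.

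The longest of the 5 length classes exceeded the shortest in median log2 change by 0.76. That difference was 0.57 to 0.79 with a V5 IP left out, 0.51 among genes of at least 50 CPM in NIH3T3, -0.068 against the NIH3T3 monoculture and -0.68 against the HA IPs. Against the HA IPs, 7 of the 26 higher and 14 of the 31 lower nuclear genes turned round, among them the chromosome 14 and chromosome 12 genes described above, with log2 changes of 1.10 and -2.57. The cause of these moves was not tested. Depth limits low genes, since 4121 of 8221 had fewer than 10 input counts.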
